A study of Mus musculus with 22 samples.

Results

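The right and the left primary motor cortex (M1) of BERKO mice, which lack estrogen receptor beta, were compared within each animal. The comparison used all 10 BERKO biopsies of a series of 22, a right and a left biopsy from each of 5 mice, and every biopsy whose labels give this genotype was included. The BERKO mice carry the genotype label ERb-/-. Wild-type (WT) controls contributed 12 biopsies from 6 mice and are used here for comparison. Animals of both genotypes were C57BL/6 males aged 16 to 20 weeks and untreated as far as the labels tell. The tissue was taken by needle puncture, and 10 ng of RNA per biopsy was sequenced from the 5' ends of transcripts. RNA of 6 BERKO mice was processed according to the labels, and 1 BERKO sample was dropped by the submitters for being an outlier. The biopsies analysed are those of the mice numbered 2 to 6. The labels do not say whether BERKO and WT mice were littermates.

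Estrogen receptor beta, encoded by Esr2, is a nuclear receptor that binds estradiol and regulates transcription of its target genes. M1 sends the commands for voluntary movement through projection neurons of its deep layers to the opposite side of the body. A needle biopsy of cortex holds neurons, astrocytes, oligodendrocytes, microglia and vessels, and at the surface or base of the cortex also meninges or white matter. The level of a transcript in such a sample therefore reflects both how many cells of a type it holds and how much each cell expresses.

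The labels were first checked against the targeted gene. Esr2 had 0 reads in 8 of 10 BERKO biopsies, 6 reads in the left biopsy of mouse 3 and 4 in the left biopsy of mouse 5, all in a coding region and none upstream or in the 5' UTR. A count of 3 reads corresponded to between 3.16 and 12.5 CPM (reads scaled to the gene reads of a biopsy) across the BERKO biopsies. In WT it had 0 reads in 11 of 12 biopsies and 3 reads in the right biopsy of mouse 1, so Esr2 was too low in WT to check the genotype labels. Total reads ranged from 658590 to 996351 in the right biopsies and from 249751 to 746108 in the left ones. The left biopsy of mouse 5 had the lowest total and 1 sequencing lane, against 3 for the others. On the first principal component of the 10 biopsies, which held 16.2% of the variance, the left biopsy of mouse 4 stood at 60.2 and the others between -19.0 and 2.08. On the second, with 14.4%, the left biopsy of mouse 5 stood apart at 54.8. The column names hold a code whose letter was the same for all right biopsies and differed from those of the left ones. The labels and headers do not say what this letter stands for. If it is a plate row, side and plate row cannot be told apart.

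No gene passed the adjusted threshold for a difference between right and left M1 in BERKO mice. Among the 20 named genes with the smallest p-values, the MHC class I gene H2-K1 and the astrocyte genes Gfap and Aqp4 were lower on the right, and Stx1a, Hpcal4 and Kif5a, which neurons use in release, calcium sensing and axonal transport, were higher there. Across 24 astrocyte genes measured, 23 had lower values on the right, and across 30 synaptic vesicle genes 24 had higher values there, with list medians of -0.34 and 0.16. All gene lists were chosen with earlier results of these data known, and members of a list can vary together. Counts and medians of lists are therefore descriptions and not tests. Levels are CPM of gene reads after TMM scaling, and log2 differences are right minus left. BERKO values come from the fit of the 10 BERKO biopsies; WT values and the difference between genotypes come from a fit of all 22, in which the BERKO values differ slightly.

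Each gene was tested with edgeR's quasi-likelihood test, with the mouse as a block. At an adjusted p of 0.05, 0 of 6488 genes were called (0%), and the smallest adjusted p was 0.938 (edgeR). At an unadjusted p under 0.05 there were 329 genes (5.07%), of which 169 were higher (2.6%) and 160 lower (2.47%) on the right, where 324.4 would be expected if no gene differed. The median log2 difference of all genes was 0.01, with 3332 above and 3156 below 0. The 95% confidence interval of 2645 genes (40.8%) lay within a 2-fold difference in either direction. For the other genes a 2-fold difference was not excluded at this depth and number of mice. Right and left levels did not overlap for 66 genes (1.02%), with the right above for 32 (0.493%) and the left above for 34 (0.524%). The right was higher in 5 of 5 mice for 237 genes (3.65%) and the left for 242 genes (3.73%). Of the 7551 single 5'-end regions tested, 0 were called (0%), with 355 at an unadjusted p under 0.05 (4.7%). The 49 genes named by rule had adjusted p-values of 0.938 to 0.965 (edgeR), and no gene named below passed.

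**Figure D1:**
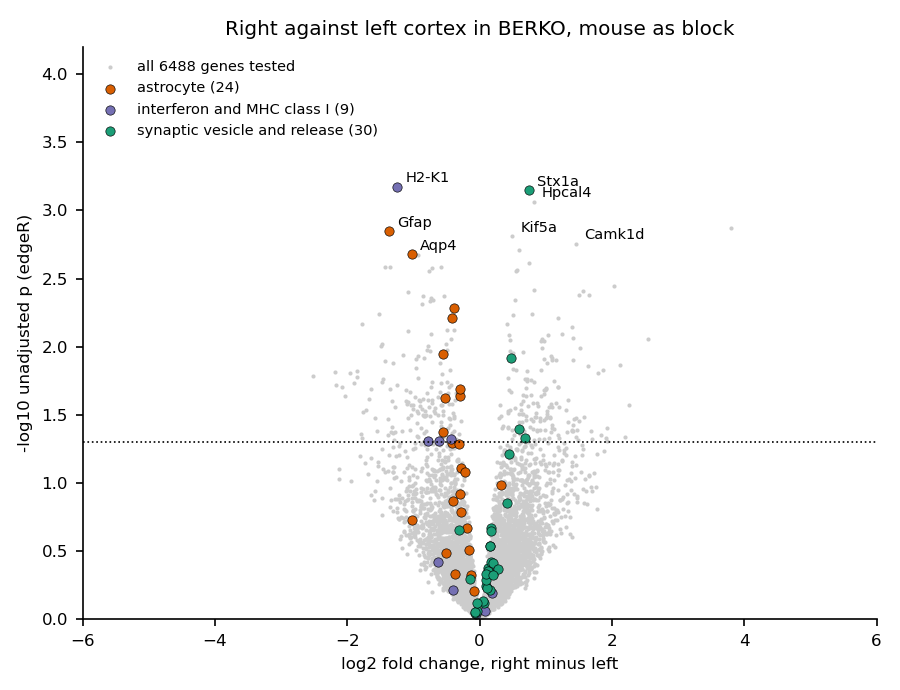
Log2 difference (right minus left, x axis) against -log10 of the unadjusted edgeR p (y axis) for 6488 genes in the 10 BERKO biopsies, with 3 gene lists in colour and the dotted line at a p of 0.05. Astrocyte genes lie mostly left of 0 and synaptic vesicle genes mostly right of it, and no gene passed the adjusted threshold.

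Astrocytes are the glial cells that take up glutamate and potassium and contact vessels with their end feet. Of the 24 measured astrocyte genes of a list of 25, 0 were called, 23 were lower on the right and 1 was higher, S100b, at 0.32. The median log2 difference was -0.34, against 0.01 for all genes. At an unadjusted p under 0.05 there were 9 members, all lower on the right, where 2.47% of all genes were lower at that threshold. The summed level of the 24 genes on the right was 38751 CPM in mouse 2, 25083 in mouse 3, 35742 in mouse 4, 32147 in mouse 5 and 34372 in mouse 6. On the left it was 37913, 35020, 51195, 37498 and 40256 in the same mice. The sum was lower on the right in 4 of 5 mice, mouse 2 being the exception, and the sides overlapped. The median stayed between -0.40 and -0.28 when any 1 mouse was left out and was -0.35 without mice 4 and 5. Scaled on spike-in RNA, which moved the median of all genes to 0.17, the astrocyte median was -0.18. In WT the same list had a median of -0.36, with 22 of 24 genes lower on the right, and 0 of its members reached an unadjusted p under 0.05 for a difference between genotypes. In these bulk samples, fewer cells of a type and less RNA per cell cannot be told apart.

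Gfap encodes the intermediate filament of astrocytes, which is abundant in reactive astrocytes and in those near the cortical surface and white matter. Its level was 51.7 CPM on the right and 120 on the left in mouse 2, 13.7 and 83.4 in mouse 3, 71.1 and 112 in mouse 4, 35.4 and 47.1 in mouse 5, and 25.9 and 105 in mouse 6. The right was lower in 5 of 5 mice, although the highest right biopsy, of mouse 4, lay above the left biopsy of mouse 5. The log2 difference was -1.37 ± 0.37 (SE, 95% interval -2.14 to -0.59, unadjusted p 0.00142). In WT it was -0.31 ± 0.38, and the difference between genotypes of -1.04 ± 0.56 had an unadjusted p of 0.0758.

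Aqp4, the water channel of astrocyte end feet, showed 103 CPM on the right and 141 on the left in mouse 2, 38.7 and 170 in mouse 3, 93.6 and 234 in mouse 4, 76.4 and 163 in mouse 5, and 99.2 and 117 in mouse 6. All 5 left biopsies lay above all 5 right ones. The log2 difference was -1.03 ± 0.29 (unadjusted p 0.0021), and in WT it was -0.59 ± 0.28. Aldoc, the aldolase isoform of astrocytes, was lower on the right in 5 of 5 mice by a log2 difference of -0.39 ± 0.12, with 2751 ± 303 CPM on the right and 3622 ± 675 on the left (SD, n = 5). Other astrocyte genes with an unadjusted p under 0.05, named after their values were seen, were the gap junction gene Gjb6 (-0.55), the sodium pump subunit Atp1b2 (-0.55), Ntsr2 (-0.52), the lipid carriers Apoe (-0.41) and Clu (-0.30), and the secreted Sparcl1 (-0.30). The glutamate transporter genes Slc1a2 (-0.13) and Slc1a3 (-0.08) were near 0. Gpc5, a glypican of the cell surface, was outside the list and also did not overlap between sides, with 64.9 to 134 CPM on the right and 142 to 272 on the left. Its log2 difference was -0.93 ± 0.27 in BERKO and -0.10 ± 0.27 in WT, with an unadjusted p of 0.0533 for the difference. Its transcript shares 121 bases with an antisense gene, Gm20713, and reads of the 2 were not told apart here.

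**Figure D2:**
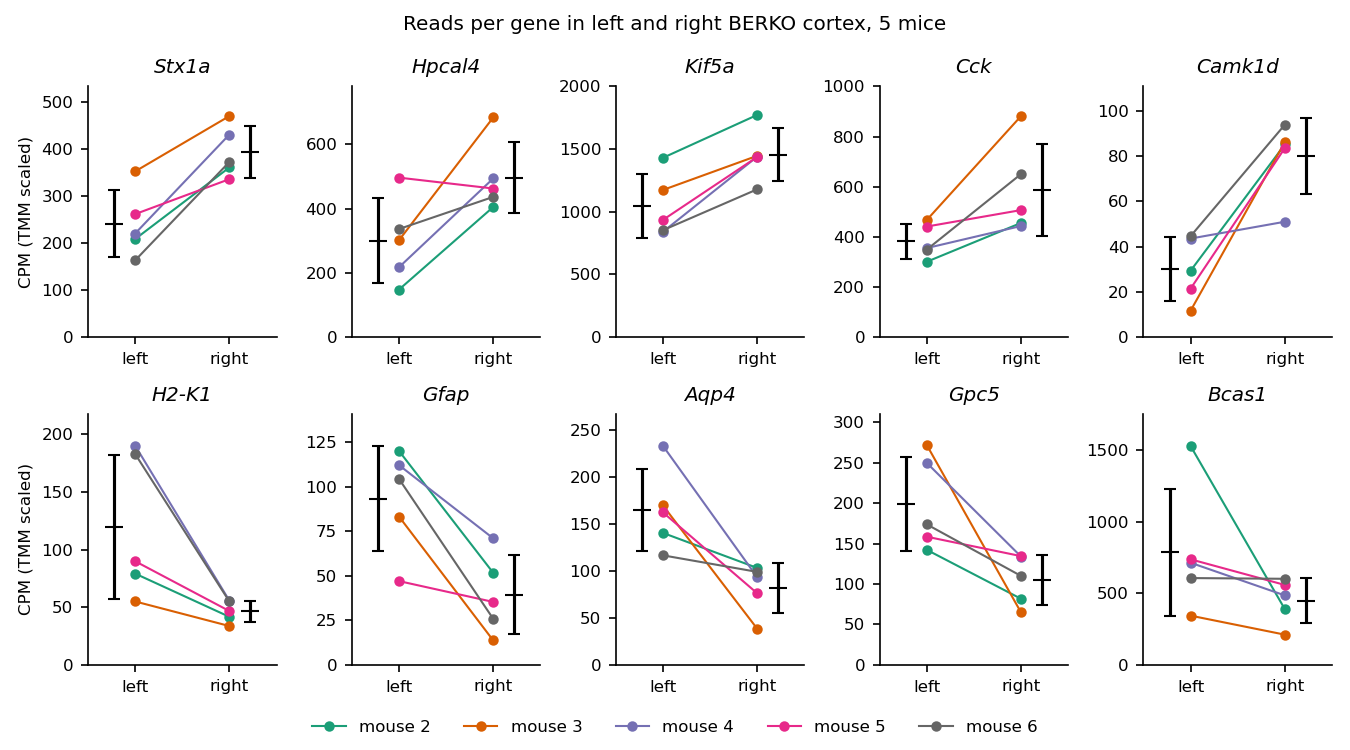
CPM after TMM scaling (y axis, linear, from 0) of 10 genes in the left and right BERKO biopsies, with 1 line per mouse and the mean ± SD of 5 mice in black. All lines go up to the right for Stx1a, Kif5a, Cck and Camk1d and all go down for H2-K1, Gfap, Aqp4, Gpc5 and Bcas1, while 1 of 5 lines for Hpcal4, that of mouse 5, goes down.

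H2-K1, a heavy chain of MHC class I that presents peptides at the cell surface, had the smallest p of all genes. Its level was 41.7 CPM on the right and 79.2 on the left in mouse 2, 33.7 and 55.0 in mouse 3, 55.7 and 190 in mouse 4, 46.7 and 89.9 in mouse 5, and 55.0 and 183 in mouse 6. The left was higher in 5 of 5 mice, most in mice 4 and 6, and the sides overlapped only between the left biopsy of mouse 3 and the right one of mouse 4. The log2 difference was -1.24 ± 0.31 (95% interval -1.89 to -0.59, unadjusted p 0.000667). It ranged from -1.61 to -1.06 over all alternatives. In WT it was -0.85 ± 0.31, lower on the right in 5 of 6 mice, and the 2 genotypes differed by -0.37 ± 0.46 (unadjusted p 0.422).

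MHC class I genes are known for promoters that respond to interferon and to NF-kB. The 250 bases before the RefSeq start (GRCm38.p6) of H2-K1 are shown with those of Gfap and of Stx1a, the gene with the smallest p among those higher on the right, since reads of all 3 genes came mostly from a region of 5' ends in the 5' UTR. That region held 96.3% of the reads of H2-K1, 51.6% of Gfap and 73.7% of Stx1a. The sequences run 5' to 3' on the strand of the gene, and capitals mark matches on either strand to the NF-kB consensus, GAANNGAAA (an interferon regulatory factor site), GGGCGG (a GC box), CCAAT, TTCCNGGAA (a STAT site) and the estrogen response element consensus.
H2-K1, chr17:34000334-34000583, minus strand: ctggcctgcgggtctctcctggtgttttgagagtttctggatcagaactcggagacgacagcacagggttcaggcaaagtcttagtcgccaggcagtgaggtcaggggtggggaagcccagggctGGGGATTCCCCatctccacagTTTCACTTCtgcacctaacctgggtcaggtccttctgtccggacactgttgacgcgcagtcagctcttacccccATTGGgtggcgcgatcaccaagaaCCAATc
Stx1a, chr5:135023232-135023481, plus strand: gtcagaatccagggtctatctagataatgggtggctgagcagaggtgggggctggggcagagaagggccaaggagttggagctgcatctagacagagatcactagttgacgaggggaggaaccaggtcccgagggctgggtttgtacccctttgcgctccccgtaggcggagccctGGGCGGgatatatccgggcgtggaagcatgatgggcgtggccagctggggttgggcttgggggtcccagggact
Gfap, chr11:102897201-102897450, minus strand: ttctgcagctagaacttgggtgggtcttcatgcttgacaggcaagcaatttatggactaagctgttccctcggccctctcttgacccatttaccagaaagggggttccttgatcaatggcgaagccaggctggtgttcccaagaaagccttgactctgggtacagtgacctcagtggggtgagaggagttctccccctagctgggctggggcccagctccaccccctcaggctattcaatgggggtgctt
For H2-K1, which has 2 starts in the table, the NF-kB consensus was matched by 2 overlapping stretches of a palindrome 125 to 115 bases before the start shown, and the interferon regulatory factor site, on the other strand, 104 to 96 bases before it. Among 32851 RefSeq promoter windows of this length, 2382 (7.25%) held the first and 2073 (6.31%) the second. CCAAT was matched 6 to 2 bases before the start and, as its reverse complement ATTGG, 30 to 26 bases before it, and 33.9% of windows held this motif. Stx1a had a GC box 74 to 69 bases before its start, as did 32.7% of windows somewhere in theirs. Gfap held none of the 6 motifs. The estrogen response element was in none of these 3 and in 0.0396% of windows, and the STAT site was in 0.913%. No other matches overlapped. These matches describe the letters of the windows and not binding.

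Of the 9 measured genes of the interferon and MHC class I list, 7 were lower on the right, with a median of -0.43. The median was -0.20 without mouse 3 and -0.73 without mouse 2. At an unadjusted p under 0.05 there were 4 members, all lower on the right, where 2.47% of all genes were lower at that threshold. Besides H2-K1 these were B2m, the light chain of MHC class I (-0.43 ± 0.20), Ifitm3, an interferon-induced membrane protein (-0.61 ± 0.29), and Tapbp, which loads peptides onto class I (-0.79). H2-D1, a second class I heavy chain, was at 0.08. The summed level of the list was lower on the right in 5 of 5 mice, from 762 against 782 CPM in mouse 2 to 512 against 1027 in mouse 3. The WT median was -0.47, and 0 members reached an unadjusted p under 0.05 for the difference. Among genes of microglia, the resident macrophages of the brain, 12 of 20 measured were lower and 8 higher on the right, with a median of -0.09, or 0.01 without mouse 4, and 0 at an unadjusted p under 0.05.

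Markers of vessels, meninges and myelin, which a needle can take in differing amounts, also differed between the biopsies. Of 12 endothelial genes, 8 were lower on the right with a median of -0.34, and the summed level was lower on the right in 5 of 5 mice, at 1125 to 1747 CPM against 1709 to 2140. Cldn5, the tight junction protein of the blood-brain barrier, was at 139 ± 46.0 CPM on the right and 200 ± 23.7 on the left (SD, n = 5), a log2 difference of -0.57 ± 0.24 in 4 of 5 mice. Itm2a (-0.60 ± 0.22), the phospholipid transfer protein gene Pltp (-0.48 ± 0.20) and Pecam1 (-1.28) were also lower at an unadjusted p under 0.05, and Ly6a (1.69) was higher. Of 7 pericyte and smooth muscle genes, 5 were lower, with a median of -0.23, which ranged from -0.61 without mouse 2 to 0.00 without mouse 6, where 3 of 7 were lower. It was -0.13 without mouse 3, -0.03 without mouse 4 and -0.04 without mouse 5.

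Of 13 meningeal fibroblast genes, 12 were lower on the right with a median of -0.41, which was 0.02 without mouse 3 and -0.96 without mouse 2. Ptgds, the prostaglandin D synthase of the meninges, had 10604 CPM on the right and 6744 on the left in mouse 2, but 3278 and 9210 in mouse 3, 7786 and 15373 in mouse 4, 6720 and 7421 in mouse 5, and 5704 and 10674 in mouse 6. The right was lower in 4 of 5 mice, with a log2 difference of -0.58 ± 0.25, and it was -0.57 ± 0.27 in WT. The collagen gene Col1a1 was at 32.2 ± 30.0 CPM on the right and 62.3 ± 19.6 on the left, a log2 difference of -1.31 ± 0.48 in 4 of 5 mice. Meningeal and astrocyte markers were thus both lower on the right, and the part of meningeal tissue in the astrocyte values was not tested. The meningeal sum was higher on the right in mouse 2, at 12550 against 7436 CPM, and lower there in the other 4 mice. This sum was mostly Ptgds, with means of 6819 CPM on the right and 9885 on the left, against 7774 and 10977 for the whole list.

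Of 23 oligodendrocyte and myelin genes, 20 were lower on the right, with a median of -0.26, and this rested on mouse 2: without it the median was 0.07 and 8 of 24 genes were lower. Without mouse 6 it was -0.41. The summed level of the list in the left biopsy of mouse 2 was 29448 CPM, against 9530 to 13009 in the other left biopsies and 7906 to 15007 in the right ones. Bcas1, a marker of myelinating oligodendrocytes, had 389 CPM on the right and 1527 on the left in mouse 2, 211 and 344 in mouse 3, 485 and 713 in mouse 4, 558 and 737 in mouse 5, and 601 and 606 in mouse 6. It was lower on the right in 5 of 5 mice, barely so in mouse 6, with a log2 difference of -0.72 ± 0.21. A coding region held 98.4% of Bcas1 reads, and 0% lay upstream or in the 5' UTR. The Bcas1 transcript shares 246 bases with an antisense gene, Bcas1os1, and reads of these genes were not told apart here. Apod, a lipid-binding protein of oligodendrocytes and meningeal cells, was lower on the right in 5 of 5 mice by -0.59 ± 0.17. Qdpr, a pteridine reductase (-0.46 ± 0.18), and Enpp2 (-0.37) were lower too, whereas the myelin basic protein gene Mbp was at -0.14. In WT the median of the list was -0.01.

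**Figure D3:**
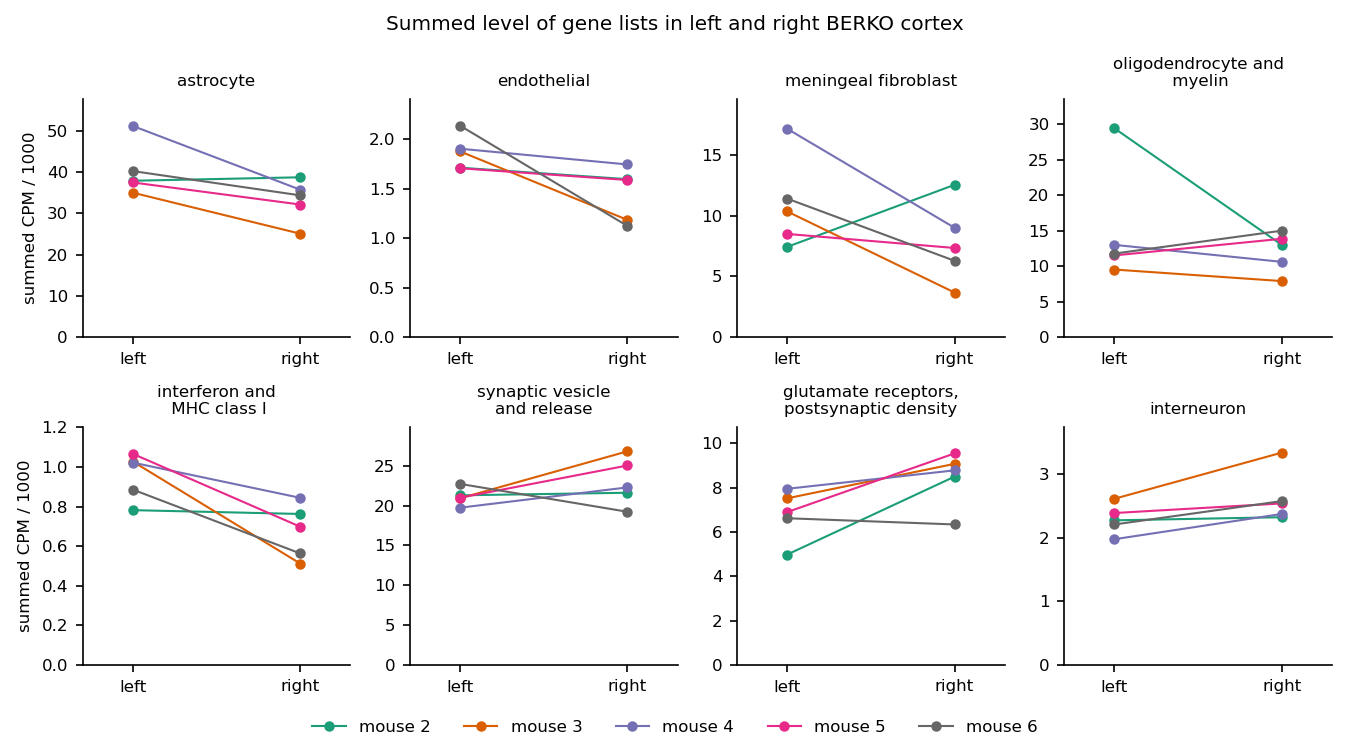
Summed CPM (y axis, linear, from 0, in units of 1000 CPM) of 8 gene lists in the left and right biopsy of each BERKO mouse, with 1 line per mouse. The endothelial and interferon lists slope down to the right in 5 of 5 mice and the interneuron list up in 5 of 5, while the left biopsy of mouse 2 alone reaches 29448 CPM for myelin. The interneuron sum includes Cck, and in mouse 2 it rises by less than Cck alone.

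Genes of synaptic release were mostly higher on the right. Of 30 measured synaptic vesicle genes, 24 were higher and 6 lower, with a median of 0.16. At an unadjusted p under 0.05 there were 4 members, all higher, where 2.6% of all genes were higher at that threshold. The median was 0.05 without mice 4 and 5, whose left biopsies stood apart, 0.08 without mouse 3 and 0.10 without mouse 4. The summed level was higher on the right in 4 of 5 mice and lower in mouse 6, at 19219 against 22717 CPM. In WT the median was 0.08, with 19 of 31 genes higher on the right.

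Stx1a encodes syntaxin 1A, a membrane protein of the complex that fuses synaptic vesicles. Its level was 360 CPM on the right and 208 on the left in mouse 2, 469 and 352 in mouse 3, 430 and 219.9 in mouse 4, 335 and 261 in mouse 5, and 372 and 163 in mouse 6. The right was higher in 5 of 5 mice, and the sides overlapped only through the left biopsy of mouse 3. The log2 difference was 0.75 ± 0.19 (95% interval 0.36 to 1.14, unadjusted p 0.000707), and in WT 0.31 ± 0.18. Its partner in vesicle fusion Vamp2 (0.48 ± 0.17) and the vesicle GTPase gene Rab3b (0.60 ± 0.27) were higher on the right in 5 of 5 mice. Pclo, a scaffold of the active zone, was higher by 0.69.

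Of 28 genes of glutamate receptors and the postsynaptic density, 20 were higher on the right, with a median of 0.20 (WT 0.15, 24 of 29 higher). The median was 0.14 without mouse 5 and 0.10 from upstream and 5' UTR regions only. Camk2a, the main calcium-dependent kinase of excitatory synapses, had 2506 CPM on the right and 1037 on the left in mouse 2, 2291 and 1536 in mouse 3, 2382 and 1716 in mouse 4, 2187 and 2072 in mouse 5, and 1433 and 1496 in mouse 6. It was higher on the right in 4 of 5 mice, by 0.47 ± 0.16. Nrgn, a calmodulin-binding protein of dendritic spines, was higher in 5 of 5 mice (0.45 ± 0.16), and the postsynaptic scaffold gene Homer1 in 4 of 5 (1.18 ± 0.55). Slc17a6, the vesicular glutamate transporter most used in the thalamus and little in cortex, went the other way, at 0 to 84.1 CPM on the right and 61.5 to 121 on the left. It was lower on the right in 5 of 5 mice by -1.48 ± 0.52, and by -1.05 ± 0.51 in WT. Of 33 ion channel genes, 21 were higher, with a median of 0.22 and 0 at an unadjusted p under 0.05, and the median was 0.13 without mouse 2 and 0.09 without mouse 3 or mouse 5.

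Several other neuronal genes were among the 20 genes with the smallest p. Hpcal4, a neuronal calcium sensor, had 405, 684, 494, 463 and 437 CPM on the right and 148, 302, 218, 497 and 337 on the left in mice 2 to 6. It was higher on the right in 4 of 5 mice, the exception being mouse 5, with a log2 difference of 0.82 ± 0.21 (unadjusted p 0.000862). Kif5a, a kinesin that carries cargo along axons, had 1770, 1444, 1437, 1435 and 1178 CPM on the right and 1428, 1172, 839, 933 and 852 on the left, higher on the right in 5 of 5 mice by 0.49 ± 0.14. The sides of Kif5a overlapped only through the left biopsy of mouse 2. Mapt, the microtubule-binding protein tau, was higher by 0.35 ± 0.16 in 4 of 5 mice, and the median over 32 axon and cytoskeleton genes was 0.03.

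Camk1d, another calcium-dependent kinase, had 85.1, 86.1, 51.0, 83.5 and 93.8 CPM on the right and 29.3, 11.7, 43.5, 21.4 and 44.6 on the left. All 5 right biopsies lay above all 5 left ones, and the log2 difference was 1.46 ± 0.41, against 0.01 ± 0.37 in WT (difference 1.48 ± 0.57, unadjusted p 0.0138). Its leading region, in the 3' UTR, held 31.1% of its reads. Ccnd3, a D-type cyclin, also did not overlap, with 16.7 to 66.4 CPM on the right and 3.07 to 15.0 on the left. Left biopsies held a mean of only 5.2 Ccnd3 reads. In mice 5 and 6 the left levels, 8.56 and 3.07 CPM, lay below those of 3 reads, 12.5 and 4.42 CPM. The lack of overlap in Ccnd3 thus rests on few reads. The log2 difference of Ccnd3 was 2.03 ± 0.62 in BERKO and -0.68 ± 0.52 in WT (difference 2.75 ± 0.82, unadjusted p 0.00195), and a near-identical pseudogene makes its counts uncertain. Tmed4, a cargo protein of the early secretory pathway, lay lower on the right without overlap (119 to 176 against 193 to 327 CPM), by -0.77 ± 0.23.

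Prkcb, a protein kinase C of neurons (0.56 ± 0.16), and Jph4, which joins the endoplasmic reticulum to the plasma membrane (0.83 ± 0.26), were higher on the right in 5 of 5 mice, and the secreted glycoprotein gene Olfm1 (0.75 ± 0.22) in 4 of 5. Emc10, a subunit of the membrane protein insertion complex, was higher in 5 of 5 mice (1.56 ± 0.48), with 0 CPM in the left biopsy of mouse 5. Ttyh2, a membrane protein of glia, was lower on the right in 5 of 5 mice by -1.43 ± 0.42. Gh, growth hormone, which is a product of the pituitary, was listed in all 10 biopsies at 6.47 to 65.1 CPM on the right and 16.9 to 137 on the left, lower on the right in 5 of 5 mice by -1.35 ± 0.39. In WT the value for Gh was 0.67 ± 1.14, with 701 ± 1675 CPM on the right and 29.3 ± 27.4 on the left (SD, n = 6). Snrpn, an imprinted gene for a splicing protein of neurons, was higher on the right in 4 of 5 mice by 0.55 ± 0.16, but by 0.09 when only upstream and 5' UTR regions were counted. Snrpn shares 700 bases at 95.3% identity with Gm5802, so its counts are uncertain.

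Layer and cell class markers were also read. Of 10 genes of deep-layer neurons, 8 were higher on the right with a median of 0.23. It was -0.07 without mouse 6, 0.38 to 0.43 without mouse 2, 3 or 4, and 0.01, with 4 of 8 genes higher, when only upstream and 5' UTR regions were counted. Crym, a thyroid hormone-binding protein of deep-layer neurons, had 26.7 CPM on the right and 14.7 on the left in mouse 2, 119 and 33.4 in mouse 3, 27.3 and 9.16 in mouse 4, 28.3 and 25.7 in mouse 5, and 77.6 and 15.4 in mouse 6. It was higher on the right in 5 of 5 mice, by 1.40 ± 0.47, against -0.37 ± 0.33 in WT (difference 1.84 ± 0.53 with the BERKO value of 1.47 in that fit, unadjusted p 0.00137). Pcp4, a calmodulin-binding protein of layers 5 and 6, had 150, 1152, 209.8, 568 and 696 CPM on the right and 277, 208, 112, 231 and 251 on the left. It was higher on the right in 4 of 5 mice and lower in mouse 2, with a log2 difference of 1.09 ± 0.37. Without mouse 2 it was 1.55 ± 0.24 with an adjusted p of 0.0451 (edgeR), the only gene called in that fit. Part of the Pcp4 transcript is shared with the annotated gene Igsf5, so its counts are uncertain. Parm1 was lower on the right, by -0.53 ± 0.25.

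Of 11 interneuron genes, 6 were higher on the right with a median of 0.02, or -0.10 without mouse 4, and the summed level was higher in 5 of 5 mice. The sum includes Cck, a gene among those with the smallest p. In mouse 2 the sum was 2324 against 2274 CPM, a smaller gap than that of Cck alone, at 455 against 301. Cck, the neuropeptide cholecystokinin, had 455, 881, 443, 507 and 650 CPM on the right and 301, 467, 355, 441 and 349 on the left. It was higher on the right in 5 of 5 mice by 0.59 ± 0.17, against -0.01 ± 0.21 in WT. The list of GABA synthesis, transport and receptors had 11 of 20 measured genes higher on the right. Its median was 0.09, or -0.02 without mouse 2. The receptor subunit gene Gabra2, higher in 4 of 5 mice (1.05 ± 0.44), was its only member at an unadjusted p under 0.05. Without mouse 2 there were 0 such members. Of 14 immediate early genes, which neurons induce upon activity, 10 were higher, with a median of 0.20. It was 0.04 without mice 4 and 5, 0.37 without mouse 3, 0.33 without mouse 6, 0.01 in lane 3 alone, and -0.02, with 4 of 8 genes higher, from upstream and 5' UTR regions only. Among them Nr4a1 was higher in 5 of 5 mice (1.09 ± 0.49), whereas Fos (0.11) and Arc (-0.40) did not share its size or sign. Of 8 measured genes of left-right patterning and brain asymmetry, among them Lmo4 (0.29) and Bcl11a (0.41), 7 were higher on the right with a median of 0.22, or 0.10 without mouse 2 or mouse 3, and 0 had an unadjusted p under 0.05.

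**Figure D4:**
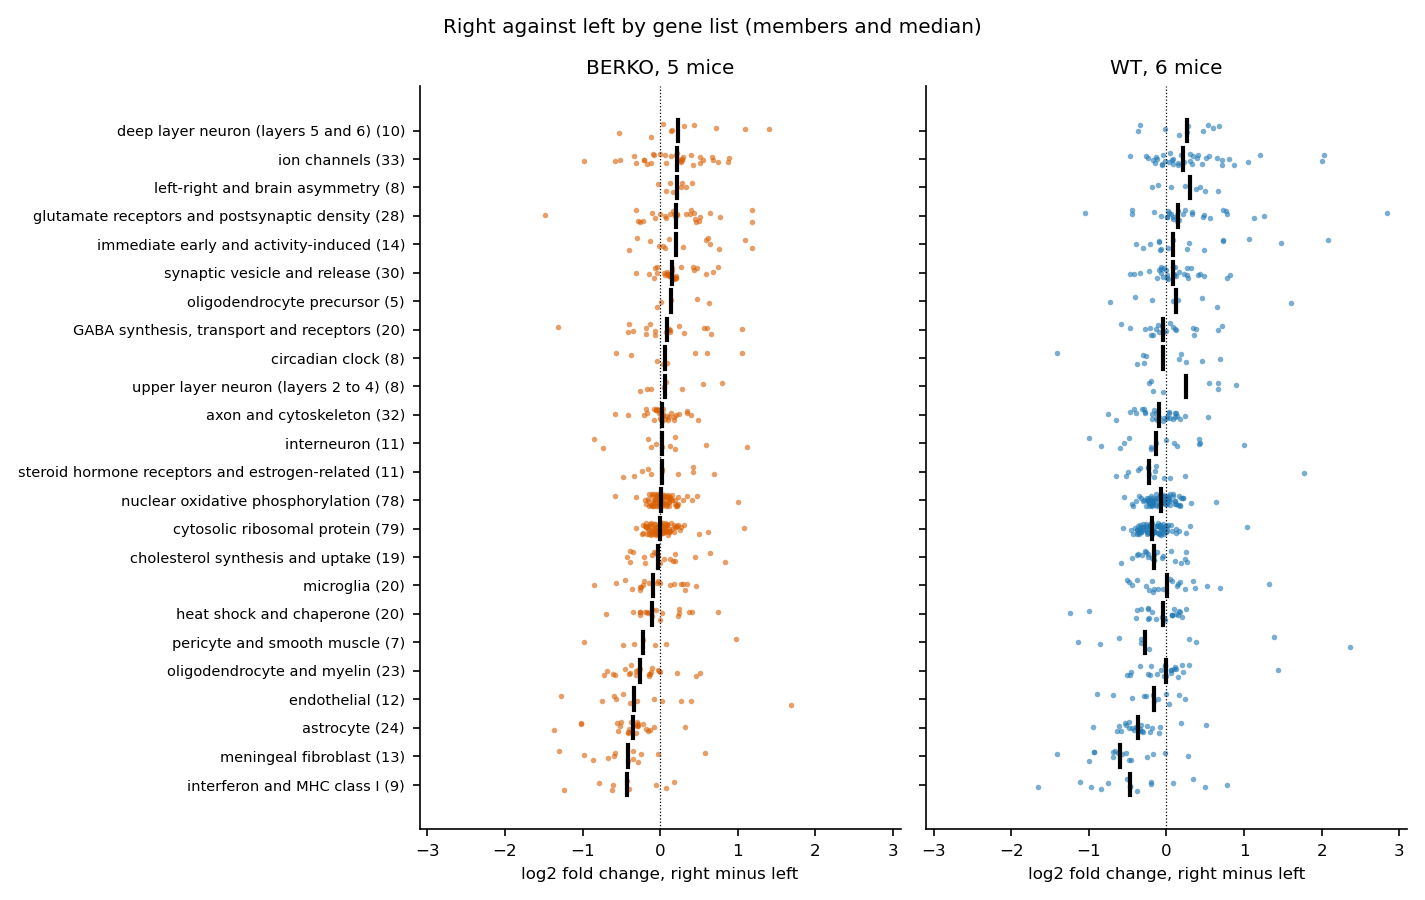
Log2 difference, right minus left (x axis), of each measured member (points) and their median (black bar) for 24 gene lists in BERKO (left panel) and WT (right panel), with the number of members measured in BERKO in brackets. The astrocyte medians are -0.34 and -0.36, while the ribosomal protein medians are 0.00 and -0.19.

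The large housekeeping lists were centred on 0. The median over 79 cytosolic ribosomal protein genes was 0.00, with 41 higher and 38 lower on the right, and the 78 nuclear genes of oxidative phosphorylation a median of 0.02. In WT the ribosomal median was -0.19, with 69 of 80 genes lower on the right, and 7 of these 80 (8.75%) had an unadjusted p under 0.05 for the difference between genotypes, against 3.26% of all genes. Among those with the smallest p in BERKO, Rps15 was higher on the right by 0.50 ± 0.18, Rps2 by 1.08 ± 0.39 and Rpl29 by 0.62 ± 0.26, and all of these have near-identical copies in the genome, so their counts are uncertain. The respiratory chain genes Cox7c (0.41 ± 0.14) and Cox5a (1.01 ± 0.40) and the ATP synthase inhibitor gene Atpif1 (0.30 ± 0.13) were higher on the right in 5 of 5 mice, while Sdhd was lower (-0.58). Cox7c shares 233 bases at 99.6% identity with Gm10012, so its counts are uncertain too. Of blood genes 1 was measured, Alas2, the heme synthesis enzyme of erythroid cells, at -1.30 ± 0.62.

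The question of whether the side difference depended on the receptor was addressed by testing BERKO against WT in 1 model of all 22 biopsies. No gene passed: 0 of 8308 were called (0%), with 271 at an unadjusted p under 0.05 (3.26%) and a smallest adjusted p of 0.998 (edgeR). The right-left comparison within WT also gave 0 of 8308 genes (0%), with 353 at an unadjusted p under 0.05 (4.25%). Of the 49 named genes, 37 had the same sign in both genotypes. The share with the same sign among all genes was not counted, so whether 37 is more than usual cannot be told.

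Pgrmc1, a heme-binding membrane protein of the progesterone receptor membrane component family, was among the 3 genes with the smallest p for the difference. In BERKO it had 325, 372, 342, 286 and 386 CPM on the right and 221, 329, 293, 210 and 234 on the left in mice 2 to 6, higher on the right in 5 of 5. In WT it was lower on the right in 6 of 6 mice, at 331 ± 73.1 CPM on the right and 502 ± 227 on the left (SD, n = 6). In the fit of all biopsies the log2 difference was 0.45 ± 0.20 in BERKO and -0.50 ± 0.18 in WT, and the difference between genotypes was 0.95 ± 0.27 with an unadjusted p of 0.00127 and an adjusted p of 0.998 (edgeR). Among 11 measured genes of steroid receptors and steroid metabolism, 6 were higher on the right in BERKO with a median of 0.02, below 0 without mouse 2, 3, 4 or 5, and Pgrmc1 alone had an unadjusted p under 0.05. Its relative Pgrmc2 was at -0.24.

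The other 2 genes with the smallest p for the difference were Il1f9, a cytokine of the interleukin-1 family, and Rwdd4a. Il1f9 was at 3.55 to 43.3 CPM on the right and 0 to 3.30 on the left in BERKO, and its difference between genotypes was 4.31 ± 1.12 (unadjusted p 0.000506). In WT it was at 23.9 ± 32.5 CPM on the right and 29.1 ± 32.6 on the left (SD, n = 6). Il1f9 had 75 reads over all BERKO biopsies, all in a 3' UTR region, and was not among the genes tested in the fit of BERKO alone. Rwdd4a was at 15.6 ± 12.3 CPM on the right and 29.8 ± 10.0 on the left in BERKO (SD, n = 5), and at 22.1 ± 5.31 and 5.95 ± 6.33 in WT (SD, n = 6), a difference of -3.49 ± 0.98 (unadjusted p 0.00113).

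Among single 5'-end regions, those with the smallest p lay in the 3' UTR of Atp6v0e2, a proton pump subunit (mm9 chromosome 6, position 48491321, log2 difference 1.49 ± 0.34), and in the 3' UTR of Enc1, a cytoskeletal protein of neurons (chromosome 13, position 98022482, 1.40 ± 0.33). The Enc1 region had 126.6, 153.5, 61.9, 104 and 101 CPM on the right and 35.7, 40.7, 36.7, 49.3 and 39.6 on the left, so every right biopsy lay above every left one. The next regions were the 5' UTR of H2-K1 (chromosome 17, position 34137229, -1.30 ± 0.31), the 5' UTR of Gh (chromosome 11, position 106163125, -1.72 ± 0.42) and a coding region of Snrpn (chromosome 7, position 67131741, 0.78 ± 0.19).

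The classes of reads were compared between sides as well, with two-sided exact sign-flip permutation tests of log2 values over the 5 pairs, whose smallest possible p is 0.0625. Reads upstream of annotated starts took 12.5% ± 0.407 on the right and 13.1% ± 0.312 on the left (SD, n = 5), lower on the right in 5 of 5 mice (exact p 0.0625, adjusted over 10 measures 0.417). Reads in 3' UTRs took 7.04% ± 0.587 and 5.82% ± 0.817, higher on the right in 4 of 5 mice (exact p 0.125). Total reads were 836808 ± 129140 on the right and 569632 ± 202996 on the left, higher on the right in 4 of 5 mice (exact p 0.125). These totals hold 1 lane for the left biopsy of mouse 5 and 3 for the others. The log2 difference of total reads was 0.64 over all lanes and 0.38 in lane 3 alone. Mitochondrial reads took 0.896% ± 0.128 and 0.746% ± 0.137 (exact p 0.25). A region in the 3' UTR held more reads than any other region of 8 named genes that were higher on the right, as the share of 3' UTR reads was: Camk1d, Camk2a, Emc10, Homer1, Nrgn, Olfm1, Prkcb and Vamp2. When only upstream and 5' UTR regions were counted, 6 of these gave a value, with log2 differences of 0.37 for Camk2a, 1.05 for Emc10, 0.34 for Nrgn, 0.66 for Olfm1, 0.52 for Prkcb and 0.44 for Vamp2. Camk1d and Homer1 gave none, and the part of the 3' UTR share in their values was not tested.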

How the data were processed

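Left and right M1 biopsies of each mouse were sequenced by STRT, which tags 5' ends. Raw read counts for each 5'-end feature and lane were deposited by the authors without normalization. Per the submitters' processing notes, Bowtie, TopHat2 2.0.12 and build mm9 were used; how reads were filtered is not stated in the labels or headers. All 64 count columns were matched to biopsies. Lanes were summed, and 95410 features with a single symbol were summed to 15297 genes; spike-in and ribosomal features were left out. The counts are reads after PCR, so floors cover counting error only. Tested-gene reads were 231085 to 916199 per biopsy.

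Genes were tested with edgeR 4.0.16 in R 4.3.3 (quasi-likelihood, robust, two-sided, TMM factors 0.968 to 1.02, default expression filter, Benjamini-Hochberg over all genes, threshold 0.05), and the biological coefficient of variation was 38.3%. SE is the log2 difference divided by the square root of F. The labels give the right and left biopsy of a mouse the same mouse tag, and the final digit in each column's name was taken for that number. Deviations from the side means had correlations of -0.0343 to 0.0383 between biopsies with the same number. The right biopsy was most like the left one of the same number in 1 of 5 mice. Expression values thus did not bear out the pairing, which rests on the labels and column names. All different biopsies of a side differed beyond sampling noise. The tests were tested on simulated data. Limma 3.58.1 and DESeq2 1.42.0 gave alternatives.

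The members and gene lists were chosen with earlier results of these data known. Named genes were the 20 with the smallest p and a mean of 20 or more reads on the higher side (1 gene was passed over), up to 3 per list with the smallest p, the 5 features and the 3 genes with the smallest p for the genotype difference, and Esr2. Only list members with an unadjusted p under 0.05 were taken into the 49 named genes; others named in passing were chosen after their values were seen. Of the 49 genes, 39 matched a RefSeq promoter, and 16 shared 100 or more bases at 95% or higher identity with another transcript, on either strand.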

Additional observations from a re-analysis of the deposited data

Results flagged for a closer look

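Among 170 groups of 5 biopsies, 11 had a biopsy far from the other 4 relative to the group's range; chance gives about 1 in 20. On the right, Camk1d was lowest in mouse 4 at 51.0 CPM (others 83.5 to 93.8), Atpif1 in mouse 4 at 1131 CPM (1497 to 1605) and Snrpn in mouse 6 at 2652 CPM (3577 to 3776), and the summed interneuron list was highest in mouse 3 at 3339 CPM (2324 to 2577). On the left, Prkcb was highest in mouse 3 at 542 CPM (346 to 392), Col1a1 highest in mouse 4 at 96.2 CPM (47.1 to 60.0) and Rab3b lowest in mouse 4 at 36.7 CPM (85.0 to 102.8). The left biopsy of mouse 4, which stood apart on the first principal component, also had the highest summed pericyte and smooth muscle level at 930.2 CPM (425 to 515) and the most spike-in reads per 1000 endogenous reads at 2.29 (1.45 to 1.67). The left biopsy of mouse 2 had the highest summed myelin level at 29448 CPM (9530 to 13009), and that of mouse 6 the lowest summed microglia level at 1679 CPM (2028 to 2136).

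Pgrmc1 was higher on the right in every BERKO mouse and lower in every WT mouse, with a difference of 0.95 between the log2 values of the genotypes. That difference did not pass adjustment over all genes.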

How the results depend on the processing

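Over 18 alternatives the number of genes called between right and left was 0 in 16 (smallest adjusted p 0.118 to 1.00, with 206 to 400.0 genes at an unadjusted p under 0.05) and 1 in the remaining ones, Pcp4 each time: with no filter on low counts (1 gene, adjusted p 0.0367, edgeR) and without mouse 2. The range when leaving out 1 mouse was 0 to 1. Of features, 3 were called with no filter (in the 5' UTR of Pcp4, in Snrpn and in an unannotated region) and 0 in the other 8 alternatives. The difference between genotypes gave 0 genes in all 16 alternatives, with 105 to 458 at an unadjusted p under 0.05 and a smallest adjusted p of 0.0941 (DESeq2). All 862 values of named genes over the alternatives kept their direction. These genes were picked by their p in the main fit of the same biopsies, which made a kept direction likely, so it is no support for them. Of 483 list medians, 70 changed sign, among them those of the meningeal and myelin lists given above. Without the replicate block, 0 genes, 0 features and 0 genes for the genotype difference were called (315 genes unadjusted), and the mouse pairing changed no call of a gene.

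Unpaired exact permutation tests of read classes gave p-values under 0.05 that the paired test could not reach: total reads (log2 0.64, p 0.0317), upstream reads (-0.069, p 0.0238) and 3' UTR reads (0.28, p 0.0317). The value for total reads includes the left biopsy of mouse 5 with 1 lane against 3, and was 0.38 in lane 3 alone. Leaving out 1 mouse turned the sign of 4 log2 differences: the intron share ranged from -0.026 (without mouse 4; -0.0058 without mouse 2) to 0.024, the noncoding share from -0.014 (without mouse 2; -0.0087 without mouse 5) to 0.081, the unannotated share from -0.020 (without mouse 6; -0.015 without mouse 5) to 0.087 and spike-in reads from -0.25 to 0.046 (without mouse 4). The cause was not tested. Depth limits the low genes: 1.96% and 2.23% of tested genes had 0 reads in the left biopsies of mice 4 and 5. The fit without mice 4 and 5 was chosen after seeing the data.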
